A study of Homo sapiens with 9 samples.

Results

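The 9 genes described here are PRSS23 and 8 genes of the system through which cells make and restrain extracellular serine proteases: PLAU, PLAUR, PLAT, SERPINE2, SERPINB2, HTRA1, F2R and F2RL1. They were taken by gene name from the 60642 names in the count table. PRSS23 was selected on its measured rise in EMX1-FL cells, so its values are a description and no test is given for it. The other 8 were listed by function, but with earlier results of these data known. Their p-values and shares therefore do not come from an independent list. SNU-398, a mesenchymal-like human hepatocellular carcinoma (HCC) line, carried a control vector, full-length EMX1 (EMX1-FL) or EMX1-X1, a splice form with another terminal exon. All 9 libraries, 3 in each group, came from stably transduced cells selected with puromycin. The vector control is labelled wild type, and the EMX1 groups are labelled by the overexpressed isoform on that background. EMX1 is a homeodomain transcription factor, and the comparison asks which genes differ in RNA level when either form is overexpressed. Whether the stable lines were clones or pools, and whether the libraries came from separate cultures, is not given in the sources used here, so p-values measure only the spread between these libraries.

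Plasminogen is a circulating zymogen that 2 activators cut into plasmin, a broad protease of fibrin and matrix. Urokinase (PLAU) acts mainly at the cell surface on its receptor PLAUR, and tissue-type activator (PLAT) acts mainly on fibrin. Serpins trap these enzymes: SERPINB2 inhibits both activators, and SERPINE2 (protease nexin-1) inhibits thrombin, urokinase and plasmin. Protease-activated receptors are G protein-coupled receptors that a protease switches on by cutting the receptor's extracellular end. F2R (PAR1) answers to thrombin and F2RL1 (PAR2) to trypsin-like enzymes and the tissue factor complex. PRSS23 and HTRA1 are secreted serine proteases, the latter with matrix proteins among its substrates. In the liver most plasminogen is made by hepatocytes.

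SERPINE2 and F2RL1 were each more than 2-fold higher in EMX1-FL cells than in the vector control, and F2RL1 was also more than 2-fold higher in EMX1-X1 cells. PRSS23 itself was 2.51-fold higher in EMX1-FL and 1.8-fold higher in EMX1-X1 cells. The urokinase pair PLAU and PLAUR, the activator PLAT, the protease HTRA1 and the receptor F2R did not pass the threshold given next in any comparison. SERPINE2 and F2RL1 passed it only before adjustment, with adjusted p of 0.0989 and 0.0703 (edgeR) in EMX1-FL cells. In EMX1-X1 cells F2RL1 had an adjusted p of 0.378 (edgeR). A differentially expressed gene (DEG) had p under 0.05 before adjustment (edgeR quasi-likelihood F test) together with a change of at least 1 on the log2 scale in either direction, and p-values adjusted by Benjamini-Hochberg over all 18574 genes tested are given beside it. Levels within a gene are in CPM, counts per 1000000 of the library size after TMM normalization, and levels between genes are in TPM, which also divide by gene length.

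The promoters of PRSS23, F2RL1 and SERPINE2, the genes that differed most, are shown because a homeodomain factor was overexpressed. Each sequence is the 250 bases before a RefSeq transcription start (GRCh38.p14), read 5′ to 3′ on the strand of the gene. Capitals mark TAAT or its reverse complement ATTA, the core that many homeodomains recognise, and the GC box GGGCGG or CCGCCC. Overlapping matches were counted separately.
PRSS23, start 1, chr11:86790821-86791070, plus strand: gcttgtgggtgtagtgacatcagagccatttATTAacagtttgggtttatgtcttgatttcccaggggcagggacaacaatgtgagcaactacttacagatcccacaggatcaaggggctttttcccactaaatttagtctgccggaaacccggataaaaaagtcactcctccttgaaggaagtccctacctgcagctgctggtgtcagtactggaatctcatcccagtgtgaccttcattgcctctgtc
PRSS23, start 2, chr11:86800292-86800541, plus strand: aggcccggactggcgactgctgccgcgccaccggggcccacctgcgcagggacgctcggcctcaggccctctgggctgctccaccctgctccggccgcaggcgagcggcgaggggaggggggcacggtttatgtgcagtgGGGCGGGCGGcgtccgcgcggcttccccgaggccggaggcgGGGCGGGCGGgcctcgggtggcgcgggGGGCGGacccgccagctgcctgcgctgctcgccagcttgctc
F2RL1, chr5:76818780-76819029, plus strand: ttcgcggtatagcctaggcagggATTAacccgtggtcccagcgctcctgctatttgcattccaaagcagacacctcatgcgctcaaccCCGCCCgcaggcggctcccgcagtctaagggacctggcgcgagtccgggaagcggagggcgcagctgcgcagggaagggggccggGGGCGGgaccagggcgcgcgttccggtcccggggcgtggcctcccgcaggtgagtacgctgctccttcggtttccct
SERPINE2, chr2:224038641-224038890, minus strand: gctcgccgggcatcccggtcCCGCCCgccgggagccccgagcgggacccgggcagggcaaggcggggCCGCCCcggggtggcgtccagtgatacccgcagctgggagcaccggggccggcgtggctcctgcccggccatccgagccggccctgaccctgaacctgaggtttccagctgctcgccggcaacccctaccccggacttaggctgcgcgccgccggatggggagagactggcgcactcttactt

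The 2 PRSS23 starts differed in base composition. The first, with 47.6% G and C, held 1 TAAT-type match, beginning 219 bases before the start, and no GC box. The second, with 79.6% G and C, held 5 GC boxes and no TAAT-type match. F2RL1 had 1 TAAT-type match 227 bases before its start and 2 GC boxes, and the SERPINE2 window shown had 2 GC boxes alone. A second SERPINE2 start, chr2:224031479-224031728, is not shown. It had 53.2% G and C, 1 GC box and no TAAT-type match. Of all 35116 promoter windows of this length, 47.4% held a TAAT-type match and 42.6% a GC box, so both are common. A match is only a run of letters, and counts per gene do not show which start was used.

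Libraries of 1 group did not always resemble each other. The first principal component of the other genes tested, with 39.6% of the variance, put vector control libraries 1 and 2, EMX1-FL libraries 2 and 3 and EMX1-X1 library 1 on one side (cluster A, 5 libraries) and the other 4 on the other (cluster B).

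By TPM the genes fell into 3 tiers (plot of levels per gene length). The order depends on the deposited gene lengths, from 2250 bases for HTRA1 to 11444 bases for PRSS23. By CPM the vector control averaged 12 for PRSS23 and 11 for HTRA1, and 6.78 for SERPINE2 against 2.55 for F2RL1. In the vector control HTRA1 averaged 17 ± 2.5 TPM (SD, n = 3), F2R 15.3 ± 3.16 TPM and PLAUR 14.9 ± 2.16 TPM, and the libraries of neighbours in this order overlapped. PRSS23 followed at 3.68 ± 0.143 TPM, F2RL1 at 3.05 ± 0.13 TPM and SERPINE2 at 2.64 ± 0.338 TPM. PRSS23 did not overlap F2RL1, whereas F2RL1 and SERPINE2 overlapped. The activators themselves were the lowest detected genes, PLAU at 0.554 ± 0.234 TPM and PLAT at 0.396 ± 0.0631 TPM, also overlapping. In the EMX1-FL cells F2R led with 27.3 ± 10.2 TPM, PRSS23 averaged 9.88 ± 1.23 TPM and F2RL1 9.02 ± 3.15 TPM. PRSS23 and F2RL1 overlapped there, and in the EMX1-X1 cells they did so at 7.11 ± 0.17 TPM and 7.06 ± 0.722 TPM. The urokinase receptor exceeded its ligand in every library: the ratio of mean TPM, PLAUR over PLAU, was 26.9 in the vector control, 17.2 with EMX1-FL and 28.6 with EMX1-X1. The ratios of single libraries overlapped, at 19.8 to 38.6, 14.6 to 26.7 and 20.3 to 41.2 in the same order. They rest on 6 to 28 PLAU counts a library.

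**Figure D1:**
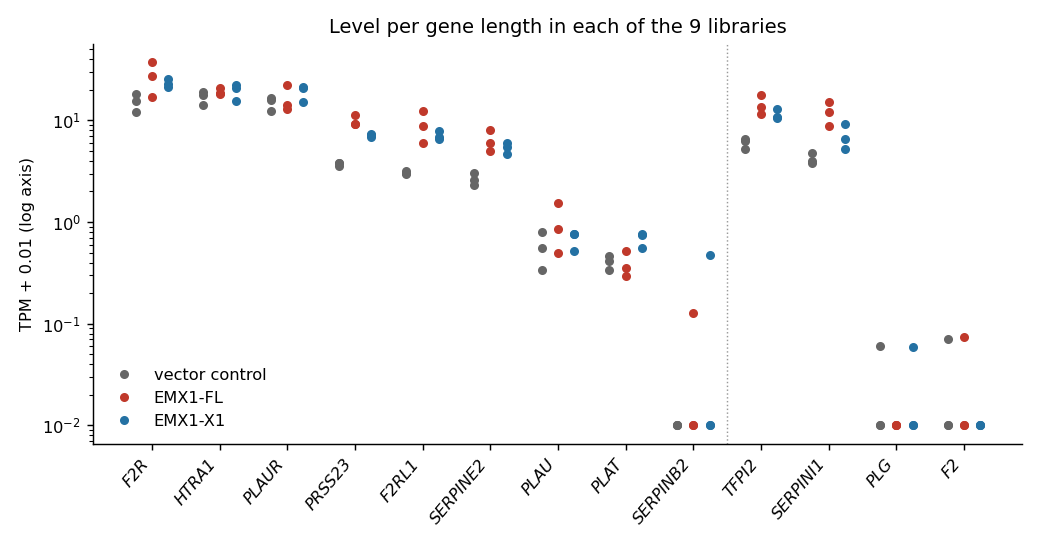
TPM with 0.01 added, on a log axis, for the 9 genes in order of their mean and, right of the dotted line, 4 other genes of the system. Each point is 1 library (grey, vector control; red, EMX1-FL; blue, EMX1-X1), and the activators PLAU and PLAT lie below their receptor PLAUR in all 9 libraries while PLG and F2 are at or near 0.

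The substrates of this system were nearly absent from the cultures' own RNA. PLG, which encodes plasminogen, had 4 counts and F2, which encodes prothrombin, had 2 counts summed over the 9 libraries, and of the other thrombin-type receptors F2RL2 had 2 counts and F2RL3 had 9. In contrast, F2R and F2RL1 were detected in all 9 libraries.

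PRSS23 (chr11:86791059-86952910, plus strand in the count table) measured 10.8, 12.1 and 13.2 CPM in the vector control libraries. It measured 35.3, 28.3 and 27 CPM in the EMX1-FL libraries and 21.6, 20.8 and 22.4 CPM in the EMX1-X1 libraries. Every EMX1-FL library lay above every EMX1-X1 library, and every EMX1-X1 library above every control. The log2 difference from the vector control was 1.33 (95% interval 0.93 to 1.72) in EMX1-FL and 0.84 (0.45 to 1.24) in EMX1-X1 cells, and the log2 difference between the isoforms was 0.48 (0.095 to 0.87). These are the values that chose the gene, in libraries that all 3 comparisons share, and they are given without a test. In bulk RNA, more RNA in each cell and more cells that hold it cannot be told apart. Of its exon bases, 12.2% overlap FZD4. Counting was not stated to use strand, so reads there cannot be assigned to either gene. FZD4, a Wnt receptor, had log2 differences of 0.38 in EMX1-FL (adjusted p = 0.997, edgeR) and 0.54 in EMX1-X1 cells (adjusted p = 0.582), and is named because of this overlap.

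**Figure D2:**
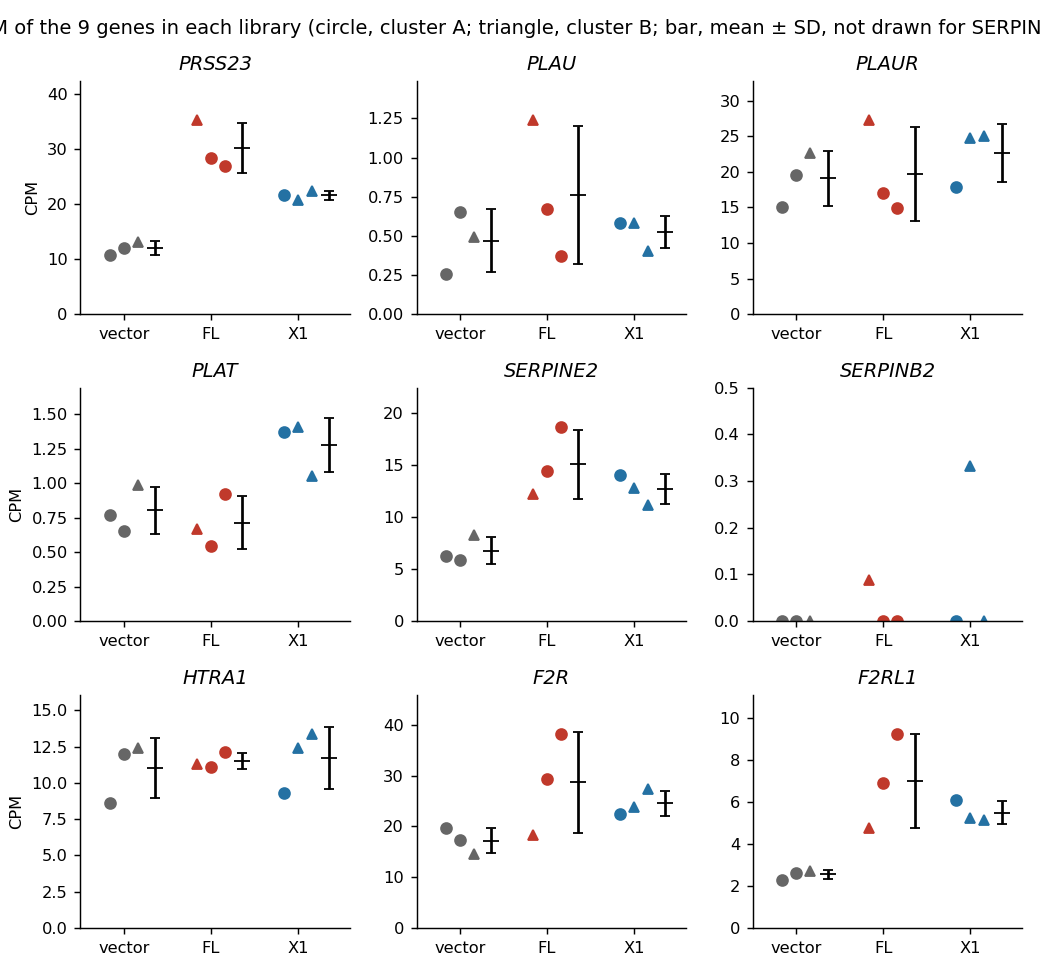
CPM of each gene on its own axis from 0, with 1 point a library (circles, cluster A; triangles, cluster B, the 2 sets of libraries that the first principal component separates) and the mean ± SD of 3 libraries as a bar, left out for SERPINB2. PRSS23, SERPINE2 and F2RL1 are higher in all 6 EMX1 libraries than in the 3 vector controls, PLAT is highest in the EMX1-X1 libraries, and the other genes overlap between EMX1-FL and vector control.

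SERPINE2 (chr2:223975045-224039318, minus strand), the inhibitor, measured 6.25, 5.85 and 8.24 CPM in the vector control. The EMX1-FL libraries measured 12.2, 14.4 and 18.7 CPM, and the EMX1-X1 libraries 14.1, 12.8 and 11.2 CPM, so all 6 EMX1 libraries were above the highest control. For EMX1-FL the log2 fold change was 1.15 ± 0.23 (SE), a 2.23-fold increase that passed the DEG threshold but not the adjusted one (adjusted p = 0.0989, edgeR). In EMX1-X1 cells it was 0.90 ± 0.23 (adjusted p = 0.397), under the fold threshold. The isoforms did not differ by the test, with a log2 difference of 0.25 (95% interval -0.23 to 0.73), which leaves room for a difference in either direction. Both calls sat at the fold threshold: without EMX1-FL library 3 the EMX1-FL value was 0.97 and no longer a DEG, and without vector control library 3 the EMX1-X1 value was 1.05 and became one. With limma on log2(TPM + 1) the EMX1-FL value, 1.00 after rounding, fell just short.

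F2RL1 (chr5:76818933-76835315, plus strand), the PAR2 gene, gave the largest log2 fold change of the 7 genes tested. Control libraries measured 2.31, 2.62 and 2.72 CPM. The EMX1-FL libraries measured 4.79, 6.91 and 9.28 CPM, and the EMX1-X1 libraries 6.12, 5.24 and 5.13 CPM. Again no EMX1 library reached down to the controls, and the EMX1-FL libraries spread on both sides of the EMX1-X1 ones. F2RL1 rose by 1.45 ± 0.27 (log2) in EMX1-FL cells (2.74-fold, adjusted p = 0.0703, edgeR). It rose by 1.11 ± 0.26 in EMX1-X1 cells (2.15-fold, adjusted p = 0.378). The log2 difference between the isoforms was 0.35 (95% interval -0.21 to 0.90, adjusted p = 0.63). With limma on log2(TPM + 1), a scale that shrinks changes of low genes, the EMX1-X1 value was 0.99 and no longer a DEG.

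F2R (chr5:76716126-76735770, plus strand), the PAR1 gene, was more variable. It measured 19.6, 17.4 and 14.6 CPM in the vector control and 18.4, 29.4 and 38.3 CPM in the EMX1-FL libraries, the first of which lay among the controls. The EMX1-X1 libraries measured 22.4, 23.9 and 27.3 CPM, all above the controls. The log2 fold change was 0.74 ± 0.25 in EMX1-FL (adjusted p = 0.586, edgeR) and 0.51 ± 0.25 in EMX1-X1 cells (adjusted p = 0.623), both under the fold threshold. Without EMX1-FL library 1 the first was 0.98 (adjusted p = 0.0433, edgeR). Between the isoforms the log2 difference was 0.23 (95% interval -0.32 to 0.77), and without EMX1-FL library 3 it was -0.038.

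F2R and F2RL1 lie 83162 bases apart on the same strand, and the adjoining genes were read within 250000 bases on either side. This neighbourhood was examined after the values of both receptors were known. IQGAP2, a scaffold protein gene that ends just before F2R, measured 2.31, 1.92 and 1.81 CPM in the vector control. It measured 4.66, 6.36 and 6.05 CPM in EMX1-FL and 4.87, 3.37 and 1.58 CPM in EMX1-X1 libraries, the last below all controls. Its log2 fold change was 1.50 ± 0.36 in EMX1-FL (adjusted p = 0.216, edgeR) and 0.70 ± 0.36 in EMX1-X1 cells (adjusted p = 0.635). On the other side none of CRHBP, AGGF1, AC008581.2 and ZBED3 was a DEG, with log2 fold changes in EMX1-FL cells of -0.35, 0.29, -0.45 and 0.016. F2RL2, the PAR3 gene, lies inside IQGAP2 on the opposite strand and was close to 0 counts.

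**Figure D3:**
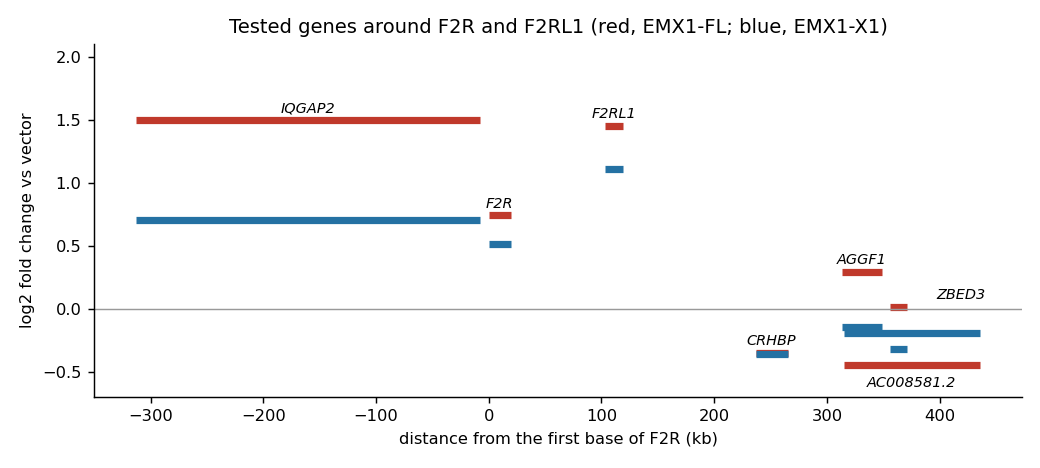
Log2 fold change against the vector control (red, EMX1-FL; blue, EMX1-X1) of the tested genes around F2R, each drawn over its extent as distance in kb from the first base of F2R. IQGAP2, F2R and F2RL1 have positive values in both groups (1.50, 0.74 and 1.45 in EMX1-FL), while the genes to the right lie between -0.45 and 0.29.

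PLAU (chr10:73909177-73917496, plus strand) had few reads, with 6, 15 and 12 counts in control libraries, 28, 16 and 8 in EMX1-FL and 14, 14 and 10 in EMX1-X1 libraries. The groups overlapped. The log2 fold change of 0.70 in EMX1-FL cells had a 95% interval of -0.52 to 1.91 (adjusted p = 0.997, edgeR), and that of 0.16 in EMX1-X1 cells one of -1.08 to 1.39, so a 2-fold change could be neither shown nor left out at this depth. Of its exon bases, 31.1% overlap C10orf55, and reads there were open to the same doubt as for PRSS23.

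PLAUR (chr19:43646095-43670547, minus strand) had enough reads for a tighter estimate. It measured 15, 19.6 and 22.7 CPM in the vector control, 27.3, 17 and 14.9 CPM in EMX1-FL and 17.9, 24.8 and 25.1 CPM in EMX1-X1 libraries. The ranges of all 3 groups overlapped. The log2 fold change was 0.048 (95% interval -0.52 to 0.62, adjusted p = 0.997, edgeR) in EMX1-FL and 0.24 (-0.32 to 0.81, adjusted p = 0.788) in EMX1-X1 cells, and without EMX1-FL library 1 the first was -0.26.

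PLAT (chr8:42174718-42207676, minus strand), the other activator, had 18, 15 and 24 counts in the control libraries and 15, 13 and 20 counts with EMX1-FL. The EMX1-X1 libraries had 33, 34 and 26 counts and were above both other groups without overlap. The log2 fold change in EMX1-X1 cells was 0.66 (95% interval -0.18 to 1.50, adjusted p = 0.655, edgeR), and EMX1-FL was below EMX1-X1 by a log2 difference of -0.84 (-1.69 to 0.008, adjusted p = 0.611). Neither passed the test. Without EMX1-FL library 3 the difference between the isoforms was -1.07 and passed the DEG threshold.

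HTRA1 (chr10:122458551-122514907, plus strand) differed little between the groups. It measured 8.61, 12 and 12.4 CPM in the vector control, 11.3, 11.1 and 12.1 CPM in EMX1-FL and 9.32, 12.4 and 13.4 CPM in EMX1-X1 libraries. Its log2 fold change was 0.063 (95% interval -0.40 to 0.53) in EMX1-FL and 0.096 (-0.37 to 0.56) in EMX1-X1 cells, intervals that leave out a 2-fold change.

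SERPINB2 did not pass the filter on low counts and was not tested. It had 2 counts in EMX1-FL library 1, 8 counts in EMX1-X1 library 2 and 0 in the other 7 libraries. A count of 0 still allows an expected count of up to 3 in that library (upper 95% limit). This sets no limit on the counts seen in other libraries, and the 8 counts rest on 1 library.

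Among the 7 tested genes other than PRSS23, 2 were DEGs in EMX1-FL cells (SERPINE2 and F2RL1), where 2.42% of all genes tested were. None of the 7 passed the adjusted threshold, which 0.07% of all genes did. With edgeR 3 of the 7 had an unadjusted p under 0.05, as did 5.8% of all genes. DESeq2 put SERPINE2 (adjusted p = 0.00187) and F2RL1 (adjusted p = 0.000519) past the adjusted threshold, with 0.673% of all genes. For 2 of the 7, no EMX1-FL library overlapped a control, against 10.5% of all genes. In EMX1-X1 cells 1 of the 7 was a DEG (F2RL1), against 2.5% of all genes, and 0 passed the adjusted threshold, against 0.00538%. There edgeR gave 2 unadjusted p under 0.05, against 8.11% of all genes, and DESeq2 put none of the 7 past the adjusted threshold, against 0.258%. In EMX1-X1 cells 4 of the 7 (PLAT, SERPINE2, F2R and F2RL1) did not overlap the vector control, against 14.7% of all genes. Between the isoforms 0 of the 7 were DEGs with edgeR, against 1.42% of all genes, and 0 with DESeq2, against 1.6%. None of the 7 had an unadjusted p under 0.05 there with edgeR, against 7.63%. Only PLAT did not overlap in that comparison, against 8.38%. The median log2 fold change of the 7 genes was 0.70 with EMX1-FL and 0.51 with EMX1-X1, where all genes had medians of 0.045 and 0.010. The 2 comparisons share the vector control libraries and are not independent. The 7 genes were listed with earlier results of these data known, so shares and medians set against all genes are a description. For a single gene, the two-sided exact permutation test of 3 libraries against 3 cannot give a p below 0.1.

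PLAUR separated by the 2 clusters of libraries, with 14.9 to 19.6 CPM in cluster A and 22.7 to 27.3 CPM in cluster B. EMX1 was 135 to 145 CPM in the 3 EMX1-overexpressing libraries of cluster A and 251 to 294 CPM in those of cluster B. Within clusters, PRSS23, which was chosen by its values in these libraries, was higher than the vector control by log2 1.27 (A) and 1.41 (B) in EMX1-FL cells. F2RL1 was higher by 1.67 in A and 0.80 in B, and SERPINE2 by 1.43 in A and 0.56 in B. In EMX1-X1 cells F2RL1 was higher by 1.28 in A and 0.91 in B, and SERPINE2 by 1.21 in A and 0.53 in B. For F2R the differences were 0.86 in A and 0.33 in B with EMX1-FL, and 0.28 in A and 0.80 in B with EMX1-X1. All of these rest on 1 or 2 libraries a side. With the cluster as a covariate, SERPINE2 (adjusted p = 0.00933, edgeR) and F2RL1 (adjusted p = 0.00741) passed the adjusted threshold in EMX1-FL cells. They also did so without EMX1-FL library 1 (0.0222 and 0.00847), which had the lowest EMX1-FL value of both genes. Of all 18574 genes, 111 and 83 passed it in these 2 settings, against 13 in the main fit. Without EMX1-FL library 3 neither gene passed (adjusted p = 0.385 and 0.288, edgeR).

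The rest of the pathway was read from lists by function. Over all genes tested, the share of DEGs was 2.42% in EMX1-FL cells, 2.5% in EMX1-X1 cells and 1.42% between the isoforms. A single DEG in a short list is therefore not read as a result about that list. Of 23 further genes of plasminogen activation, 15 were tested and 1 was a DEG in EMX1-FL cells, SERPINI1 (neuroserpin), an inhibitor of tissue-type activator. It measured 2.57, 3.23 and 2.8 CPM in the vector control, 7.9, 9.73 and 5.5 CPM in EMX1-FL and 5.87, 4.2 and 3.43 CPM in EMX1-X1 libraries. All 6 EMX1 libraries were above the controls. SERPINI1 rose by 1.43 ± 0.28 (log2) in EMX1-FL cells (adjusted p = 0.105, edgeR), with 0.65 in EMX1-X1 cells (adjusted p = 0.601). With EMX1-FL the 15 had a median of 0.23, and with EMX1-X1 one of 0.20. The 2 most abundant, ENO1 and ITGB1, had log2 fold changes of -0.14 and 0.17 in EMX1-FL cells. ITGB3, the integrin β3 chain, was a DEG in EMX1-X1 cells with a log2 change of -1.12 (adjusted p = 0.596) and between the isoforms at 1.37 (adjusted p = 0.611). The first rested on vector control library 3 (2.35 CPM, against 0.985 and 0.873 CPM), without which it was -0.54, and it also missed the threshold without any 1 of the EMX1-X1 libraries. Without EMX1-FL library 2 the second was 1.00 and no longer passed. Of its exon bases 35.9% overlap AC068234.1.

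Around the protease-activated receptors, 16 of 21 further genes were tested, with 1 DEG in EMX1-FL cells, against 2.42% of all genes. This DEG was TFPI2, a Kunitz-type inhibitor of plasmin and trypsin. It measured 3.43, 4.5 and 4.74 CPM in the vector control, 7.63, 11.5 and 8.59 CPM in EMX1-FL and 8.32, 6.82 and 7.11 CPM in EMX1-X1 libraries. Its log2 fold change was 1.13 ± 0.23 in EMX1-FL (adjusted p = 0.129, edgeR) and 0.81 ± 0.23 in EMX1-X1 cells (adjusted p = 0.469). Without EMX1-FL library 2 it was 0.92 and no longer a DEG. Of all 16, TFPI2 among them, 7 had a positive and 9 a negative value with EMX1-FL, at a median of -0.03. The most abundant were the signal transducers RHOA, at -0.17, and GNA13, at 0.15.

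Other secreted and membrane-anchored serine proteases held 1 DEG. Of 16 further HTRA and PRSS genes, 6 were tested and 1 was a DEG in EMX1-X1 cells, against 2.5% of all genes. This was PRSS12 (neurotrypsin), at a log2 fold change of 2.08 (adjusted p = 0.568, edgeR). It rested on 6, 6 and 2 counts in the vector control and 11, 18 and 34 counts in the EMX1-X1 libraries. The value was 1.57 without EMX1-X1 library 3 and 1.69 without vector control library 3, and no longer a DEG in either case, and 43.4% of its exon bases overlap SNHG8. HTRA2 and PRSS16, the most abundant, had 0.092 and -0.021 in EMX1-FL cells. Of 16 membrane-anchored proteases and Kunitz inhibitors, 7 were tested, and edgeR gave 0 DEGs and 0 unadjusted p under 0.05 in each comparison. FAP and DPP4, the most abundant, had -0.11 and -0.31 in EMX1-FL cells. Of the abundant genes named from these lists, some separated by the clusters of libraries. ENO1 (1041 to 1268 CPM in A, 1562 to 1770 in B) and HTRA2 (31.1 to 35.7 in A, 45.2 to 57 in B) were higher in B. ITGB1 (640 to 900 CPM in A, 489 to 616 in B), GNA13 (297 to 418 in A, 189 to 248 in B) and FAP (29.8 to 43.8 in A, 17.2 to 28.1 in B) were higher in A.

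Over the 9 libraries, the genes of at least 10 CPM whose log2 CPM followed PRSS23 most closely, of 10459 compared, were MYO10 (Pearson r 0.984), RNF144A (0.969), EGFR (0.965), SVIL (0.965) and PHACTR3 (0.941). EGFR, the receptor for epidermal growth factor, averaged 14.8 ± 1.2 CPM in the vector control, 30.8 ± 4.8 CPM in EMX1-FL and 21.9 ± 1.03 CPM in EMX1-X1 cells. All 5 had their highest mean in EMX1-FL and their lowest in the vector control. This order follows from picking them by likeness to PRSS23 and is no separate result. Among the system's own genes r was 0.861 for SERPINE2 and 0.847 for F2RL1, 0.567 for F2R and 0.552 for PLAU, 0.255 for PLAUR and 0.254 for HTRA1, and -0.046 for PLAT. These values describe 9 points that share 3 groups, and no p is given.

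Total counts were 21562703 to 25197970 a library. EMX1 was 9.34 to 12.9 CPM in the vector control, 135 to 251 CPM in EMX1-FL and 145 to 294 CPM in EMX1-X1 libraries, as labelled, though counts per gene do not separate the isoforms. The hepatocyte markers were nearly absent, with 1 of 8 (ALB) passing the filter, HNF4A at 2 counts over all libraries and TTR and FGB at 0. Their summed level was 0.569 to 1.06 TPM in the vector control, 1.93 to 3.4 TPM in EMX1-FL and 1.16 to 2.63 TPM in EMX1-X1 libraries, and its part in the results was not tested. ALB itself was a DEG at a log2 value of 1.46 with EMX1-FL and 1.11 with EMX1-X1, and so was ZEB1, a mesenchymal marker, with EMX1-FL. Of the 3 oncofetal markers GPC3 passed the filter at a mean of 19.3 TPM, DLK1 had 15 counts over all libraries and AFP was at 0. All 5 mesenchymal markers were tested, with VIM at a mean of 863 TPM and their sum at 750 to 1192 TPM. Epithelial markers summed to 4.52 to 9.97 TPM, with KRT18 at 0, and fibroblast markers to 305 to 390 TPM, almost all from COL3A1 (mean 336 TPM). Leukocyte markers summed to at most 0.452 TPM and endothelial markers to at most 0.3 TPM in a library.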

How the data were processed

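RNA-seq libraries of SNU-398 cells (3 vector control, 3 EMX1-FL, 3 EMX1-X1) were grouped by their labels. Raw counts, the read pairs assigned to each gene, were deposited by the authors and made by featureCounts 2.0.1 per the file header (2.0.6 per the labels) from STAR alignments to GRCh38 with Ensembl release 99; the methods name RSEM. The deposited log2(TPM + 1) values were recomputed from these counts and the deposited gene lengths. No strand setting appears in the header, and reads that overlap several genes are left out by default, which lowers overlapping genes. Totals of 21562703 to 25197970 counts a library set the precision; low genes have wide intervals.

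Of 60642 names, 18574 passed filterByExpr, and 8 of the 9 genes did. They were tested with edgeR 4.0.16 in R 4.3.3 (TMM, quasi-likelihood F test fitted to all 9 libraries with no term besides the group, Benjamini-Hochberg within each comparison), after a test on simulated data. Alternatives used DESeq2 1.42.0 and limma 3.58.1. CPM use TMM library sizes, and log2 CPM a prior count of 2. Genes named were the 9 genes, EMX1, the DEGs and the 2 most abundant of each function list, and the 5 genes of at least 10 CPM most like PRSS23; FZD4 and the neighbours of F2R were added after values were seen. One list of further serpins is left out of the text. The genes and lists were chosen with earlier results of these data known. Promoters came from RefSeq GRCh38.p14 (7 of 9 genes matched). Python 3.11.15, pandas 2.3.3 and matplotlib 3.10.9 made tables and plots.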

Additional observations from a re-analysis of the deposited data

How the results depend on the processing

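Over the 20 alternatives run on single genes, 488 of 516 tested values kept their direction and side of the DEG threshold, 16 fell below it, 2 passed it and 10 changed sign. The 60 untested PRSS23 values kept their sign. The gene was chosen for its rise in these same libraries, so this is no support for that rise. With limma on log2(TPM + 1) the number of DEGs among the 7 genes was 1 instead of 2 in EMX1-FL cells and 0 instead of 1 in EMX1-X1 cells, and with p alone it was 2 in EMX1-X1 cells. Leaving out 1 library at a time gave 1 to 2 DEGs in EMX1-FL cells (1 without EMX1-FL library 3), 1 to 2 in EMX1-X1 cells (2 without vector control library 3) and 0 to 1 between the isoforms (1 without EMX1-FL library 3). Log2 values near 0 changed sign when 1 library was left out: PLAUR (-0.26 to 0.21) and HTRA1 (-0.085 to 0.15) in EMX1-FL cells, PLAU (-0.13 to 0.45) and HTRA1 (-0.052 to 0.24) in EMX1-X1 cells, and HTRA1 (-0.17 to 0.077) and F2R (-0.038 to 0.47) between the isoforms, where HTRA1 was also 0.06 with the cluster as a covariate. The cause was not tested. PLAU could not be tested with at least 10 counts required in every library. The adjusted p in EMX1-FL cells ranged from 0.000519 to 0.385 for F2RL1 and from 0.00187 to 0.548 for SERPINE2.

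Replicate numbers did not pair the libraries: the deviations of same-numbered libraries had a mean r of -0.126 (-0.522 to 0.290, 9 pairs). With the replicate block the DEGs among the 7 genes stayed at 2, 1 and 0 in number, and F2RL1 had 1.43 (adjusted p = 0.335) in EMX1-FL cells. ITGB3 in EMX1-X1 cells (-1.07) lost its call.

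Over all genes, edgeR gave 450, 464 and 263 DEGs in EMX1-FL, in EMX1-X1 and between the isoforms, and 13, 1 and 0 past the adjusted threshold. The DEGs were 141, 177 and 105 with limma on log2(TPM + 1), 947, 962 and 686 without a filter and 217, 214 and 121 with at least 10 counts in every library. Leaving out 1 library gave 419 to 644, 296 to 902 and 126 to 1125. Past the adjusted threshold were 125, 48 and 1 with DESeq2, 111, 27 and 0 with the cluster covariate, 120, 112 and 59 without a filter and 1, 1 and 0 with the replicate block.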
